A study of Homo sapiens with 6 samples.

Results

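Cytochrome P450 enzymes were followed by RNA sequencing in PLC/PRF/5, a line of human hepatocellular carcinoma cells. The genes were taken by name, as every protein-coding gene whose symbol is CYP followed by a family number, a subfamily letter and a member number, which gave 56 of the 60623 genes in the count table. All cells were grown in the same medium with serum after delivery of a lentiviral vector: the labels give 3 libraries a vector for overexpression of ZFP64, a zinc finger transcription factor (ZFP64-OE), and 3 a control vector. Whether each line was a clone or a pool is not given in the sources used here, and nothing says that replicates came from separate cultures, so each p-value speaks only to the spread among these 6 libraries, which may be technical. The series title joins ZFP64 with PKCα, CSF1 and macrophages in liver cancer, and the comparison asks which transcripts differ between the vectors.

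P450s are haem enzymes that insert an oxygen atom into lipophilic substrates, using electrons that POR delivers in the endoplasmic reticulum and that FDXR and FDX1 deliver in mitochondria. The liver is their main site. Its drug-metabolising members are set by the xenobiotic receptors AHR, NR1I2 (PXR) and NR1I3 (CAR), and its bile acid enzymes by bile acid feedback through NR1H4 (FXR) and NR0B2 (SHP). Other members make steroid hormones, activate or inactivate vitamin D and retinoic acid, or oxidise fatty acids. Hepatoma lines in culture are known to hold many of the liver's P450s at low levels.

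The check of the labels went against them. ZFP64 had 1314, 1385 and 1112 counts under the ZFP64-OE label and 3620, 6157 and 4552 under the control label, 4.31-fold lower in the former (log2 fold change -2.11, standard error 0.0867, adjusted p = 2.31e-12; every adjusted p below is from edgeR's quasi-likelihood F-test, adjusted by Benjamini-Hochberg over all tested genes, unless another test is named). Groups are therefore given as labelled, and higher or lower always means under the ZFP64-OE label relative to the control label. Depth was 35109227 to 39739674 counts under the ZFP64-OE label and 26468949 to 37466920 under the control label, and the 56 P450 genes together took 0.0893% to 0.101% of a library's counts. Of 8 hepatocyte genes, ALB, AFP, APOB and FGB rose, SERPINA1 fell, TF and HNF4A did not pass, and ALB was at 78.9 ± 7.71 CPM (counts relative to library size, scaled by TMM factors) against 42.0 ± 4.48 CPM (SD, n = 3 each). TTR, the remaining one, had at most 3 counts in a library. Summed markers of macrophages were lower under the ZFP64-OE label (320 to 388 CPM against 522 to 574), nearly all of it LYZ, 1 of 2 tested members and the one that fell, with PTPRC at 0 and CD14 at no more than 3 counts in every library. Those of endothelial cells were also lower (3.74 to 5.87 against 12.9 to 13.2 CPM), nearly all of it PECAM1, which fell while the other tested member did not pass, with KDR and TEK at 0. Of the fibroblast markers COL1A2 was at 0, and 1 of 3 tested members fell, COL3A1 (sums of 6.24 to 8.05 against 9.39 to 10.8 CPM). At an adjusted p under 0.05, 71.4% of the tested hepatocyte genes passed, with 50%, 50% and 33.3% of the macrophage, endothelial and fibroblast markers. Over all tested genes 5.81% passed. The lists are short, with 7, 2, 2 and 3 tested members. The part of these genes in the P450 results was not tested. All libraries are labelled as the same carcinoma line, so the marker sums are not read as amounts of macrophages, endothelial cells or fibroblasts. Within the line, bulk RNA cannot tell fewer cells that express a gene from less RNA per cell.

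Of the 56 P450 genes, 26 had enough counts to be tested and 30 did not. Among the 26, CYP2J2 and CYP2B6 rose, CYP3A5, CYP4F12 and CYP17A1 fell, and 21 did not pass an adjusted p of 0.05. The 5 calls are 19.2% of the tested members, where 5.81% of all 19173 tested genes were called. By direction they are 7.69% higher and 11.5% lower, against 1.78% and 4.03% of all tested genes. The groups did not overlap for 9 of the 26 (34.6%, against 21.9% of all tested genes), with 5 above and 4 below, where 9.16% and 12.8% of all tested genes were above and below. The median log2 fold change of the tested members was -0.09, beside -0.0166 for all tested genes. A gene can enter the test through the group in which it is high, so these shares describe the tested members only.

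The promoters of 4 of the called genes, and of CYP1A1, the textbook AHR target, are shown so that the letters upstream of genes that moved can be read beside those of one that did not pass. Each is the 250 bases before the transcript start in RefSeq (GRCh38.p14), 5′ to 3′ on the gene's own strand, with capitals marking matches on either strand to GCGTG (core of the AHR site), TGANTCA (AP-1), CCAAT (bound by NF-Y), TATAAA (the TATA box) or CAAAGTCCA (HNF4). CYP4F12 had no promoter entry and is named only.
CYP2J2, chr1:59926774-59927023, minus strand: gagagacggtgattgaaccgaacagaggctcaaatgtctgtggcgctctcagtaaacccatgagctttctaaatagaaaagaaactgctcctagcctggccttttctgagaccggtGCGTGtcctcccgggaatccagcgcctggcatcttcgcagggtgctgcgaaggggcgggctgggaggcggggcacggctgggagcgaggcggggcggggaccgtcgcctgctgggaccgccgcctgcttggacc
CYP2B6, chr19:40991032-40991281, plus strand: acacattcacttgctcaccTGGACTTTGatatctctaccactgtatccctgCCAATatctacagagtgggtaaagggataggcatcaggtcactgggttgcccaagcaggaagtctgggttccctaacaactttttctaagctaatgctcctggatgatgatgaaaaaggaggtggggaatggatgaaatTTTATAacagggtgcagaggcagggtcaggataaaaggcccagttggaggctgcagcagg
CYP3A5, chr7:99679997-99680246, minus strand: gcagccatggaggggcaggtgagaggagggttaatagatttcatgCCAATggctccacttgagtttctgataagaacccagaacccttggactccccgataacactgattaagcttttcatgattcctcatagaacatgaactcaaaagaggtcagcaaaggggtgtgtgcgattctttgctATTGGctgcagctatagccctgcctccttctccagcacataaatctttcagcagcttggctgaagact
CYP17A1, chr10:102837414-102837663, minus strand: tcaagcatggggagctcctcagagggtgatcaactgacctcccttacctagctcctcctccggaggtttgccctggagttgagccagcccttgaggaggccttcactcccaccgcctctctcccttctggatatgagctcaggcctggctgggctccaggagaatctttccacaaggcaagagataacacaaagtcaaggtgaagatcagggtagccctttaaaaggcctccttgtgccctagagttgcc
CYP1A1, chr15:74725529-74725778, minus strand: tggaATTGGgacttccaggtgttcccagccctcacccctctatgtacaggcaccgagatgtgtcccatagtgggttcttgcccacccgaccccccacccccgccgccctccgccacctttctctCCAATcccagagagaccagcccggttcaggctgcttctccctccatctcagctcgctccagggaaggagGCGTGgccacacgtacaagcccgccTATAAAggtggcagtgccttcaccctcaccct

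No motif was common to the windows shown of called genes. The CYP2J2 window held GCGTG once, 134 bases before the start, with neither TATAAA nor CCAAT. CYP2B6 held CAAAGTCCA 231 bases before the start, on the opposite strand, with a CCAAT and a TATAAA match. CYP3A5 held CCAAT at 205 and 68 bases and nothing else, and CYP17A1 held none of the 5. Over the 52 windows of the 39 P450 genes with an entry (a gene can have several starts), GCGTG was in 21.2%, TGANTCA in 7.69%, CCAAT in 44.2%, TATAAA in 32.7% and CAAAGTCCA in 11.5%. The shares over all 35116 windows of the table were 32.2%, 6.57%, 32%, 10.7% and 0.325%. The 6 P450 genes with CAAAGTCCA were CYP2A6, CYP2A7, CYP2A13, CYP2B6, CYP2C8 and CYP2R1, of which the CYP2A genes are near-identical copies with the match at the same place. No motif overlapped another in the windows shown.

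Among drug and xenobiotic enzymes, CYP2B6 rose and CYP3A5 fell, 9 other tested members did not pass and 10 of the 21 were not tested. CYP2B6 oxidises drugs such as bupropion and efavirenz and is a classical target of CAR. It had 2.75, 2.93 and 3.6 CPM under the ZFP64-OE label and 2.08, 1.72 and 1.70 CPM under the control label. Every library labelled ZFP64-OE lay above every library labelled control. The gene rose 1.70-fold (95% interval 1.30 to 2.21, log2 fold change 0.76, standard error 0.184, adjusted p = 0.0154). The call was lost without ZFP64-OE-labelled replicate 3 (adjusted p = 0.0588) and without control-labelled replicate 2 (0.0966). CYP2B6 (ENSG00000197408, chromosome 19, 40991250 to 41018398, plus strand of GRCh38, GENCODE v29) shares 7.74% of its 50-base stretches with the pseudogene CYP2B7P, whose counts were between 0 and 8 in the 6 libraries.

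CYP3A5, a member of the main drug-oxidising subfamily of the liver and gut, had 8.72, 7.54 and 6.77 CPM under the ZFP64-OE label. Its levels under the control label were 10.3, 10.5 and 12.2 CPM, so the groups did not overlap. The log2 fold change was -0.52 (standard error 0.121, 1.43-fold lower, adjusted p = 0.0122), and the adjusted p was 0.0648 without control-labelled replicate 3. The gene (ENSG00000106258) lies on chromosome 7 from 99648194 to 99680026, on the minus strand. Its relatives in the same cluster were close to the limit of detection. CYP3A4, the chief drug oxidase of adult hepatocytes, had 5 to 15 counts in a library, CYP3A7, its fetal counterpart, 4 to 13, and CYP3A43 0 to 3. CYP3A5 thus held nearly all CYP3A reads, and in GENCODE v29 shares 1.04% of its 50-base stretches with CYP3A4.

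The most abundant drug-group transcripts were CYP2S1 and CYP1A1, and neither passed. CYP2S1, an enzyme found mostly in epithelia outside the liver, was at 24.9 ± 2.05 FPKM (the deposited values per length and library size, the scale used here to compare levels between genes) under the ZFP64-OE label and 30.5 ± 3.13 FPKM under the control label (SD, n = 3 each). By library it had 66.1, 75.5 and 63.4 CPM against 83.3, 90.1 and 72.5 CPM, with 1 library labelled ZFP64-OE above the lowest labelled control. Its log2 fold change of -0.26 had a 95% interval of -0.45 to -0.07 before adjustment and an adjusted p of 0.101; it passed without control-labelled replicate 3 (adjusted p = 0.0429) and with the replicate number as a block (0.0136).

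CYP1A1, which oxidises polycyclic aromatic hydrocarbons and is switched on by AHR, had 48.5, 49.6 and 48.7 CPM under the ZFP64-OE label and 52.1, 43.6 and 43.7 CPM under the control label. The 3 former values lie within the range of the latter. The log2 fold change was 0.08 with a 95% interval of -0.10 to 0.25 (adjusted p = 0.683), a fold between 0.936 and 1.19. Its family relatives CYP1A2 and CYP1B1 had at most 2 and 12 counts in a library. Of 8 tested rows of the AHR pathway list, among them AHR, its partner ARNT and its targets TIPARP and NQO1, none passed with edgeR, DESeq2 or limma-voom, and their median log2 fold change was -0.04. At an unadjusted p under 0.05 there was 1 with edgeR and DESeq2 (UGT1A6) and 2 with limma-voom. AHR itself was at 110 ± 9.71 and 113 ± 6.89 CPM.

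Other tested members of the drug group included CYP2C18, CYP2C19, CYP2D6, CYP2D7, CYP2F1 and CYP2W1, with log2 fold changes from -0.64 for CYP2W1 to 0.36 for CYP2D6. The 95% interval of each included 0. CYP2C18, a minor member of the CYP2C subfamily in liver, was the highest of them at 3.71 ± 0.347 and 4.11 ± 0.278 FPKM. CYP2C18 and CYP2C19 share 36.5% and 36.2% of their 50-base stretches with a read-through gene of the cluster that had 5 counts in all, and CYP2D6 shares 31.9% with CYP2D7, so the counts of these genes are uncertain. CYP2D7 is protein-coding in the deposited table and a polymorphic pseudogene in GENCODE v29. Not tested were CYP1A2, CYP1B1, CYP2A6, CYP2A7, CYP2A13, CYP2C8, CYP2E1, CYP3A4, CYP3A7 and CYP3A43, with at most 15 counts in a library. CYP2E1, the ethanol-inducible oxidase that is abundant in hepatocytes, had 6 to 11 counts in a library.

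**Figure D1:**
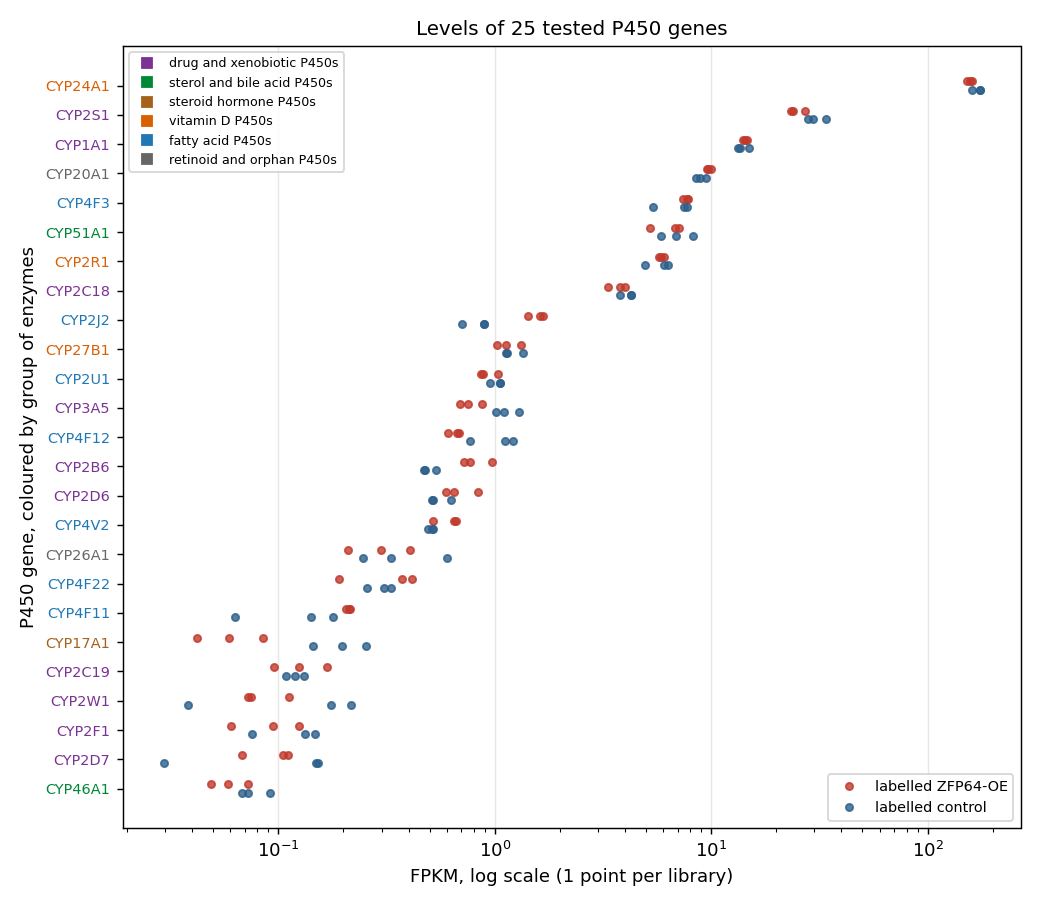
FPKM on a log axis for 25 of the 26 tested P450 genes, ordered by their mean over all libraries, with 1 point per library (red labelled ZFP64-OE, blue labelled control) and gene names coloured by group of enzymes. CYP24A1 stands above all others, at a mean of 163 FPKM, and the red and blue points of CYP2J2, CYP2B6, CYP3A5, CYP4F12 and CYP17A1 do not mix. Among genes that did not pass, those of CYP24A1, CYP2S1, CYP20A1 and CYP4F11 do not mix in FPKM either.

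In the fatty acid group of 14, CYP2J2 rose, CYP4F12 fell, 5 tested members did not pass and 7 were not tested. CYP2J2 is an epoxygenase that turns arachidonic acid into epoxyeicosatrienoic acids, and it had the smallest adjusted p of all P450 genes. It was at 4.93, 4.35 and 4.93 CPM under the ZFP64-OE label and at 2.75, 2.06 and 2.52 CPM under the control label. The lowest library labelled ZFP64-OE was well above the highest labelled control. The gene rose 1.95-fold (95% interval 1.55 to 2.47, log2 fold change 0.97, standard error 0.162, adjusted p = 0.000577) and passed in all 14 other settings tried, with a log2 fold change of at least 0.49, the value on log2(FPKM + 1). CYP2J2 (ENSG00000134716) lies on chromosome 1 from 59893308 to 59926790 on the minus strand, with no other annotated gene on its exons and no 50-base stretch shared with another gene.

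CYP4F12, which hydroxylates fatty acids and eicosanoids, moved the other way. It had 3.47, 3.55 and 3.09 CPM under the ZFP64-OE label and 4.04, 5.52 and 5.86 CPM under the control label. Control-labelled replicate 1 lay closest to the other group, and the groups did not overlap. The gene fell by 0.62 on the log2 scale (standard error 0.158, adjusted p = 0.0231), and the call was lost without ZFP64-OE-labelled replicate 3 (adjusted p = 0.0566), control-labelled replicate 2 (0.126) or control-labelled replicate 3 (0.0977).

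CYP4F12 (ENSG00000186204, chromosome 19, 15672757 to 15697174, plus strand) stands beside CYP4F3 (15640897 to 15662825, plus strand), which ends the activity of leukotriene B4 and was the most abundant fatty acid P450. CYP4F3 was at 44.0, 41.7 and 42.5 CPM under the ZFP64-OE label and 30.9, 40.1 and 40.7 CPM under the control label. All 3 former values were above the latter, 2 of them by little, and the log2 fold change of 0.19 did not pass (fold 1.14, 95% interval 0.999 to 1.31, adjusted p = 0.266). The log2 ratio of CYP4F12 to CYP4F3 counts, which needs no scaling between libraries, was -3.66, -3.55 and -3.78 under the ZFP64-OE label and -2.93, -2.86 and -2.80 under the control label, a mean difference of -0.80. In the CYP2 cluster elsewhere on the chromosome, the ratio of CYP2B6 to CYP2S1 was -4.59, -4.69 and -4.14 against -5.32, -5.71 and -5.41, a mean difference of 1.01. Neither ratio overlapped between groups. By a two-sided exact permutation test each gave p = 0.1, the smallest that 3 against 3 allows, and 0.1 when adjusted over the 2 pairs. Both pairs were chosen after their values were seen, with numerators already called, so these p-values add no support to the calls.

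Among the other fatty acid members, CYP4F11 was at 0.860 ± 0.0178 CPM under the ZFP64-OE label and 0.512 ± 0.240 CPM under the control label. Its log2 fold change of 0.74 (95% interval 0.05 to 1.43) rested on 146 counts and did not pass (adjusted p = 0.225). CYP4V2, a fatty acid hydroxylase mutated in a corneoretinal dystrophy, had a log2 fold change of 0.31 (adjusted p = 0.239). CYP2U1 and CYP4F22, which act on long-chain fatty acids, had -0.11 and 0.16 (adjusted p = 0.733 and 0.835). CYP4F2, the main arachidonic acid hydroxylase of liver microsomes, had 2 to 16 counts in a library and was not tested. Nor were CYP4A11, CYP4A22, CYP4B1, CYP4F8, CYP4X1 and CYP4Z1, each with at most 2 counts in a library.

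**Figure D2:**
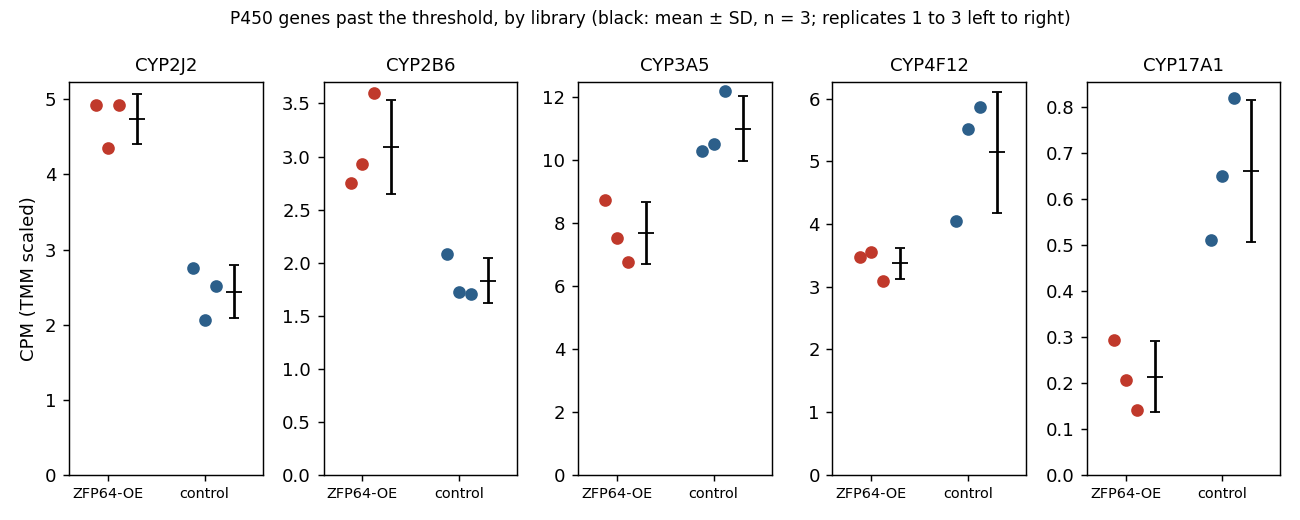
CPM of the 5 called P450 genes in each library, each panel from 0 with its own axis, with red points for libraries labelled ZFP64-OE, blue for those labelled control, and the mean ± SD of 3 libraries in black. CYP2J2 and CYP2B6 are higher on the left of each panel and CYP3A5, CYP4F12 and CYP17A1 higher on the right, with no overlap in any panel.

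Of the 7 cholesterol and bile acid P450s, 5 had too few counts to be tested, and of 2 tested members none passed, or had an unadjusted p under 0.05, with edgeR, DESeq2 or limma-voom. CYP51A1, the lanosterol demethylase of cholesterol synthesis, was the most abundant, with 18.8, 25.6 and 23.8 CPM under the ZFP64-OE label and 21.6, 28.5 and 23.2 CPM under the control label. The groups overlapped, and the log2 fold change was -0.11 with a 95% interval of -0.36 to 0.14 (adjusted p = 0.692). A gene model on the same strand that holds 79.4% of its exon bases had no count. CYP51A1 shares 81.1% of its 50-base stretches with other genes. How reads in shared parts were assigned is not given, so its counts are uncertain. CYP46A1, the cholesterol hydroxylase of neurons, was tested on 134 counts (-0.33, adjusted p = 0.612). CYP7A1, the rate-limiting enzyme of bile acid synthesis, had 1 count in the 6 libraries together, and CYP8B1, which sets the share of cholic acid, had 14. CYP7B1 and CYP39A1, of the alternative pathways, had 7 and 38.

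CYP27A1, the mitochondrial sterol hydroxylase that opens the alternative pathway, had 4, 7 and 4 counts under the ZFP64-OE label and 13, 11 and 7 under the control label, 0.133 ± 0.0406 and 0.336 ± 0.155 CPM. The groups do not overlap in CPM. It did not have enough counts to be tested and, when the low count filter was left out, did not pass (edgeR adjusted p = 0.246).

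CYP17A1 was the only tested member of the 6 steroid hormone enzymes, and it fell. It passed the filter on low counts through the control-labelled libraries, in which it is high, and it is 1 of the 3 lower calls counted above. With no filter its adjusted p was 0.00373. Leaving out the filter lowered the adjusted p of every called P450 gene, so this value is no separate support. It is the hydroxylase and lyase of androgen and cortisol synthesis in adrenal and gonad. Its counts were 11, 8 and 5 under the ZFP64-OE label and 13, 25 and 27 under the control label, 0.214 ± 0.0762 against 0.661 ± 0.155 CPM. All 3 libraries labelled ZFP64-OE were below the others in CPM. CYP17A1 fell by 1.62 on the log2 scale (standard error 0.382, 3.08-fold lower, adjusted p = 0.013). The fold of ZFP64-OE label over control label was 0.325, with a 95% interval of 0.187 to 0.565. The call was lost without control-labelled replicate 2 (adjusted p = 0.0513) or control-labelled replicate 3 (0.0678). CYP17A1 (ENSG00000148795, chromosome 10, 102830531 to 102837533, minus strand) shares 41.1% of its exon bases with WBP1L on the opposite strand, and no strand setting is given for the counts. WBP1L had 12522 counts in the 6 libraries against 89 for CYP17A1, and its log2 fold change was -0.06 (adjusted p = 0.766).

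CYP19A1, the aromatase, had 37 counts in all and was not tested. CYP21A2 and CYP11A1, which work in adrenal steroid synthesis, had 1, 4 and 2 and 1, 1 and 3 counts under the ZFP64-OE label and none under the control label. These counts are at or near the floor of 3 counts a library, which is 0.0772 to 0.118 CPM, so no fold is given. CYP21A2 also shares 33.2% of its 50-base stretches with its pseudogene. CYP11B1 and CYP11B2 had no count in any library, like CYP2A13, CYP4A11 and CYP4F8; this allows up to those CPM in a library, for counting error alone.

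The vitamin D enzymes held most P450 transcript, and none of the 3 passed with edgeR, DESeq2 or limma-voom, nor had an unadjusted p under 0.05 with any of them. CYP24A1, the hydroxylase that inactivates vitamin D and is normally low without it, made up 65.1% to 66.9% of the summed P450 FPKM in each library. Its level was 640, 654 and 602 CPM under the ZFP64-OE label and 667, 677 and 662 CPM under the control label. All 3 former values were below the latter, yet the log2 fold change of -0.08 (95% interval -0.27 to 0.11) did not pass (adjusted p = 0.704). This interval allows a fold between 0.827 and 1.08. CYP24A1 (ENSG00000019186, chromosome 20, 54153449 to 54173973, minus strand) lies 1.95 Mb from ZFP64 (52051663 to 52204308), whose level differed 4.31-fold in the same libraries.

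CYP2R1, which starts vitamin D activation, was at 27.1, 26.3 and 27.2 against 23.1, 26.7 and 27.4 CPM, overlapping groups, and its log2 fold change was 0.06 (95% interval -0.12 to 0.24, adjusted p = 0.777). CYP27B1, which completes it, was at 3.84 ± 0.524 and 3.91 ± 0.302 CPM (-0.02, 95% interval -0.35 to 0.30, adjusted p = 0.962). VDR, the receptor that induces CYP24A1, had 1 to 14 counts in a library and was not tested.

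Of the 5 retinoid and orphan members, 2 were tested, and neither passed with edgeR, DESeq2 or limma-voom or had an unadjusted p under 0.05 with any of them. CYP20A1, whose substrate is not established, was at 30.4, 31.6 and 29.4 CPM under the ZFP64-OE label and 28.5, 25.6 and 27.8 CPM under the control label. Its groups did not overlap, with a log2 fold change of 0.16 (95% interval -0.01 to 0.33, adjusted p = 0.294). CYP26A1, the main retinoic acid hydroxylase of liver, spread widely within both groups, with 0.907, 1.24 and 0.623 CPM against 1.02, 1.75 and 0.699 CPM (-0.34, 95% interval -1.02 to 0.33, adjusted p = 0.627). CYP26B1, CYP26C1 and CYP27C1 had at most 8 counts in a library.

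**Figure D3:**
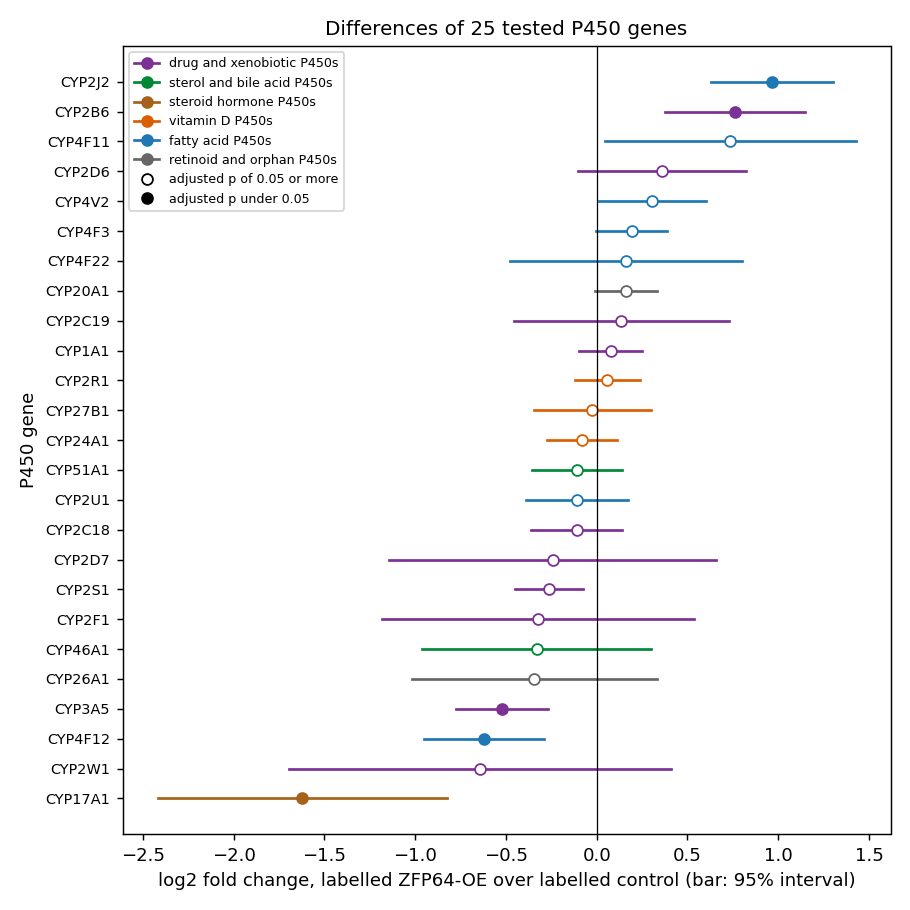
Log2 fold change of the libraries labelled ZFP64-OE over those labelled control for 25 of the 26 tested P450 genes, with 95% intervals before adjustment, coloured by group of enzymes and filled where the adjusted p was under 0.05. The values run from -1.62 for CYP17A1 to 0.97 for CYP2J2, and the intervals widen for genes of low count.

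Per length, the summed P450 level was 239 ± 6.47 FPKM under the ZFP64-OE label and 256 ± 11.2 FPKM under the control label (SD, n = 3 each). The sums over all members overlapped, at 237, 246 and 233 against 244, 265 and 260 FPKM. They are set mainly by CYP24A1. The drug group summed to 46.3 ± 1.99 against 52 ± 2.76 FPKM and the fatty acid group to 12 ± 0.121 against 10.8 ± 1.38 FPKM, led by CYP2S1 and CYP4F3. Neither of these sums overlapped between groups in FPKM. The drug sums were 45.1, 48.6 and 45.1 against 52, 54.8 and 49.3 FPKM, and the fatty acid sums 12.1, 11.9 and 12.1 against 9.21, 11.4 and 11.8 FPKM. In CPM, which carries the TMM factors, the drug sums did overlap, at 137 to 150 against 146 to 164. The fatty acid sums did not, at 62.6 to 65.9 against 51.3 to 61 CPM. Sums of the steroid hormone and the retinoid and orphan groups were also apart in FPKM, and no share over all genes was computed for such sums. CYP2J2, the riser with the smallest adjusted p, was at 1.57 ± 0.126 against 0.829 ± 0.104 FPKM. It adds little to the sum over all members. Its difference is a sizeable part of that between the fatty acid sums. By library CYP2J2 was at 1.62, 1.43 and 1.67 against 0.89, 0.709 and 0.888 FPKM, and with these values taken out the fatty acid FPKM sums overlap between groups.

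Of 8 tested electron donors none passed with edgeR, DESeq2 or limma-voom (median log2 fold change -0.01), and 1, 1 and 2 had an unadjusted p under 0.05. POR was at 115 ± 10.9 and 103 ± 11.2 CPM (0.16, adjusted p = 0.355), and FDX1 at 49.2 ± 2.27 and 48.8 ± 2.97 CPM. Of 12 genes of haem synthesis and breakdown, 1 rose and 11 did not pass (median -0.07), which is 8.33% called against 5.81% of all tested genes. The riser was HMOX1, the inducible haem oxygenase that degrades haem, at 236 ± 16.8 against 166 ± 14.7 CPM (0.51, adjusted p = 0.00116). ALAS1, the rate-limiting enzyme of haem synthesis in liver, did not pass (0.19, adjusted p = 0.218).

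Among 14 tested regulators of P450 genes, 2 rose, 1 fell and 11 did not pass (median 0.1), which is 21.4% called against 5.81% of all tested genes. DESeq2 called 4, with ONECUT1, a hepatocyte transcription factor, as the fourth (edgeR log2 fold change 0.28, adjusted p = 0.0636). NR0B2, the bile acid-induced repressor of CYP7A1, was at 17.1 ± 1.65 against 10.1 ± 1.43 CPM (0.75, adjusted p = 0.000209). NR5A2, an activator of CYP7A1 and of NR0B2 itself, rose by 0.51 on the log2 scale (adjusted p = 0.000213), at 59.9 ± 2.97 against 42.0 ± 2.36 CPM. FGFR4, the receptor through which FGF19 represses bile acid synthesis, fell by 0.32 (adjusted p = 0.0454), at 279 ± 16 against 348 ± 26.6 CPM. NR1I3, the CAR that drives CYP2B6, was at 3.26 ± 0.257 against 2.81 ± 0.122 CPM and did not pass (0.22, adjusted p = 0.503), and NR1I2, the PXR that drives CYP3A genes, had at most 5 counts in a library. HNF4A, a main hepatocyte activator of P450 genes, was at 307 ± 9.93 and 315 ± 22.2 CPM (-0.04, adjusted p = 0.870).

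**Figure D4:**
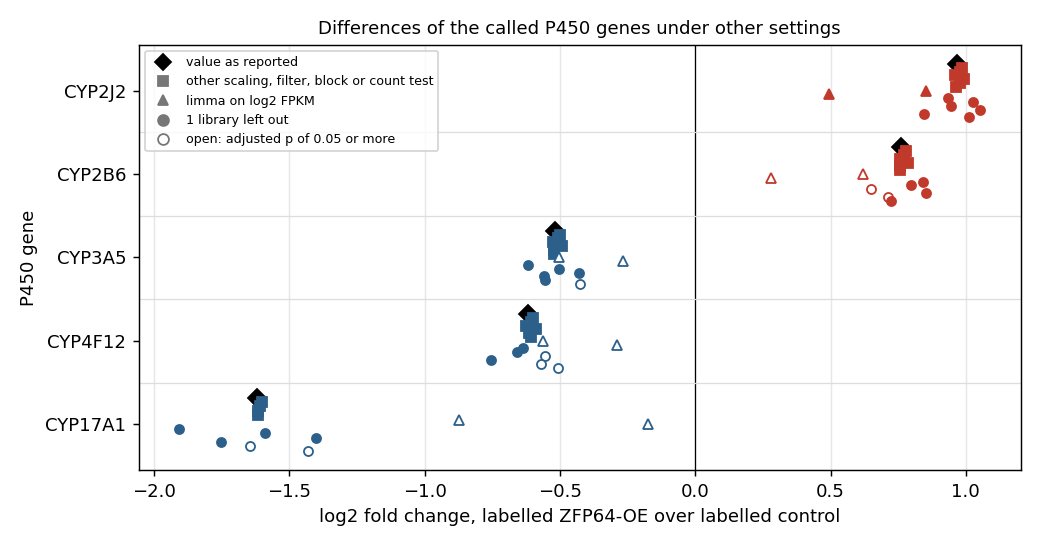
Log2 fold change of the 5 called P450 genes as reported (black diamond), with other scalings, filters, a replicate block or count tests (squares), with limma on log2 FPKM (triangles) and with 1 library left out (circles), open where the adjusted p was 0.05 or more. All markers of a gene stay on its side of 0, and all those of CYP2J2 are filled, while each of the other 4 genes has open ones.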

How the data were processed

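RNA of 6 PLC/PRF/5 libraries was prepared with an Illumina TruSeq kit, per the labels' protocols. The submitters' processing notes name HISAT2 and GRCh38; no counting program, annotation or strand setting could be read from the labels. Deposited values were whole-number counts per gene, not normalized, and FPKM, which divide those counts by a length per gene and by library size; in 24388 genes counted in all 6 libraries, the length implied did not vary between libraries.

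All genes were fitted with edgeR 4.0.16 in R 4.3.3: filterByExpr (minimum count 10, total 15), TMM factors, robust quasi-likelihood F-test on group alone, Benjamini-Hochberg adjustment over 19173 genes and a threshold of 0.05. A standard error is the log2 fold change over the square root of F. Alternatives were RLE factors, no filter, a minimum mean of 1 CPM, DESeq2 1.42.0, limma 3.58.1 (voom, and log2 FPKM with pseudocounts of 0.1 and 1), a replicate block and each library left out. The fits were tested on simulated data, with changes planted only in genes with a mean of at least 1 CPM. Of the 26 tested P450 genes, 18 met a minimum mean of 1 CPM. CYP17A1, CYP4F11, CYP4F22, CYP2C19, CYP2W1, CYP2F1, CYP2D7 and CYP46A1 did not, so recovery at their levels was not tested. The recovered shares are not split by level. The main edgeR fit recovered 77% of 1.5-fold and 98% of 2-fold changes, with 7 false calls. Limma on log2 FPKM recovered 59% and 79%, with 9 false calls. Replicates differed beyond sampling noise (chi-square per gene at least 11.5 in each pair), so none was a copy. Positions, exon overlaps and shared stretches of 50 bases came from GENCODE v29, which for some genes differs from the lengths behind the deposited FPKM. For CYP3A5 the implied length was 9817 bases, against 6759 exon bases in GENCODE v29.

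The text names each called P450 gene, the 2 of highest mean FPKM in each group, up to 3 called genes of each companion list, and other members; 1 tested P450 gene is counted but its values are not reported here. Members, groups and lists were chosen with earlier results of these data known. Floors cover counting error only.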

Additional observations from a re-analysis of the deposited data

How the results depend on the processing

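CYP2J2 was called in all 14 alternatives. The number of P450 genes called higher (2) and lower (3) was 1 and 0 with limma on log2(FPKM + 0.1), and 1 and 0 with limma on log2(FPKM + 1); the cause was not tested. On log2(FPKM + 0.1) CYP3A5 and CYP4F12 had log2 fold changes of -0.50 and -0.56. Leaving out 1 library gave 1 to 2 higher and 1 to 3 lower; there was 1 higher without replicate 3 labelled ZFP64-OE or replicate 2 labelled control, and 1 lower without control-labelled replicate 2 (CYP3A5) or control-labelled replicate 3. The latter was CYP2S1, so that CYP3A5, CYP4F12 and CYP17A1 all lost their call. None of the 5 called genes changed sign in an alternative that gave it a value. CYP17A1 had no adjusted p from DESeq2 (unadjusted p = 0.00339), and the minimum mean of 1 CPM left it out. The deviations of same-numbered libraries correlated at 0.0701, 0.0405 and 0.124, and those of other pairs at -0.289 to 0.229. With so few libraries this cannot settle whether the numbers pair them, and the main fit used group alone. With a replicate block 2 P450 genes were higher and 4 lower, adding CYP2S1, and each of the 5 called genes had a smaller adjusted p. Of the 30 members that the filter left out, with at most 53 counts in all, 25 were tested by edgeR without it, and the smallest adjusted p was 0.246 (CYP27A1).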
